A study of Homo sapiens with 9 samples.

Results

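The genes described here are 10 rows of the count table of MV411 leukaemia cells: 7 that encode amino acid transporters of the plasma membrane (SLC7A5, SLC3A2, SLC1A5, SLC1A4, SLC38A1, SLC38A2 and SLC7A1) and 3 that encode the enzymes of serine synthesis (PHGDH, PSAT1 and PSPH). They were chosen by symbol, out of 26485 symbols in the table. All 10 members were found, and all 10 passed the filter on low counts, with 12845 genes in all. MV411, as the labels spell it (often written MV4;11), is a cell line from an acute myeloid leukaemia with a rearranged MLL gene. The 9 untreated libraries were 3 of parental cells, 3 of cells with MYC mutated at K148Q and 3 of cells with MYC mutated at K148R, all from cells kept in RPMI medium. In K148Q the lysine is replaced by glutamine, and in K148R by arginine. The titles carry the codes WT, Q2 and R14. The sources used here do not say whether each mutant line is a single clone, how the mutation was made, or whether replicate libraries were grown apart. The p-values therefore measure only the spread between these libraries.

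Dividing cells import most of the amino acids they build into protein, and MYC is known to raise the genes of several importers. The protein of SLC7A5 carries leucine and other large neutral amino acids into the cell in exchange for glutamine, and is held in the membrane by a glycoprotein partner, the product of SLC3A2. Glutamine itself enters through the products of SLC1A5, SLC38A1 and SLC38A2, while SLC1A4 encodes an exchanger of alanine, serine and cysteine, and SLC7A1 encodes a carrier of arginine and lysine. Serine can also be made inside the cell from the glycolytic intermediate 3-phosphoglycerate: PHGDH oxidises it, PSAT1 adds the amino group of glutamate, and PSPH removes the phosphate. Many of these genes are known targets of ATF4, the transcription factor that responds to a shortage of amino acids.

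Values are counts scaled to library size (CPM), with library sizes adjusted by edgeR's TMM method, given as mean ± SD of n = 3 libraries unless each library is listed. Fold changes are on the log2 scale with their standard error (SE), from edgeR's quasi-likelihood test, and a gene was called changed where the Benjamini-Hochberg adjusted p over all 12845 genes was under 0.05. In these bulk libraries, fewer cells expressing a gene and less RNA per cell cannot be told apart.

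Total counts ran from 13747087 to 18938391. Of 10 myeloid genes checked against the label, FLT3, CD33, SPI1, PTPRC, CEBPA and CD4 averaged above 50 CPM in each genotype. CSF1R went from 40.2 CPM in parental cells to 168 with K148R, ITGAM was 10.9 to 29.1, MPO 2.88 to 7.52 and CD34 at most 0.442 CPM, and FLT3 fell from 652 to 301 CPM with K148R. Of markers of other lineages, CD3E, KLRD1, MS4A1, AHSP and EPCAM had 0 counts in all 9 libraries, while NKG7 stood at 52.3 CPM in parental cells and 25.9 and 27.1 in the mutants, KRT18 at 16.3 and under 1, KRT8 at 11.3, 0.873 and 1.77, and PAX5 at 0.813, 3.57 and 3.48. MYC mRNA averaged 333 CPM in parental cells, 473 CPM with K148Q and 379 CPM with K148R. K148Q replicate 3 stood apart from the other libraries of its group (chi-square per degree of freedom of 16.9 and 17.4, against 1.33 between the other two), and its signed deviation from the group mean ran against transcript GC content (Spearman's rho -0.72 over 12140 genes; genes do not count as replicates). For K148Q replicates 1 and 2 this rho was 0.57 and 0.58. For K148R replicates 1, 2 and 3 it was 0.44, 0.03 and -0.41, and for parental libraries -0.03 to 0.05. In both mutants the deviation thus ran with GC content in replicate 1 and against it in replicate 3. The K148R libraries differed from the rest in more than amino acid genes: the summed level of 15 proliferation genes was 852 to 870 CPM, against 5890 to 5920 in parental and 5600 to 5690 in K148Q libraries. That of 14 monocyte and macrophage markers, 1 of which (MRC1) was at 0 throughout, was 2360 to 2400 CPM, against 449 to 461 and 938 to 997. Of the 8 markers tested, 7 were called higher and 1 lower in K148R cells. In K148Q cells 5 were higher and 0 lower. The shares of all tested genes called higher were 37.8% in K148R and 27% in K148Q cells. The marker that fell with K148R was FCGR1A, from 65.8 to 36.8 CPM. LYZ alone held 1650 CPM of the K148R sum, up from 161 CPM in parental cells. The markers not tested (MRC1, CD14, FCGR3A, CD163, VCAN and FCN1) averaged at most 0.353 CPM in any genotype. The summed T and NK cell list went from 50 to 56.1 CPM in parental libraries to between 25.4 and 29 CPM in the mutants, and the epithelial and fibroblast list from 27 to 31.6 CPM to 0.821 to 1.92 in K148Q and 6.09 to 10.8 in K148R. NKG7 was the only tested gene of the T and NK list. Of the 5 tested epithelial and fibroblast genes, KRT8 and KRT18 fell in both mutants. COL1A1, COL1A2 and COL3A1 were called higher in K148R cells, from 0.305, 0.261 and 0.342 CPM in parental cells to 2.89, 1.48 and 1.87 CPM. Parental replicate 1 held 0.844, 0.784 and 1.03 CPM of these genes, and the other parental libraries 0.0723 CPM or less. A further list held 10 genes whose RNAs usually lack a poly(A) tail, histone genes among them and RN7SK foremost. It summed to 515 to 630 CPM in K148R, 17.5 to 48.4 in parental and 18.3 to 23.3 CPM in K148Q libraries. The part of these differences in the results below was not tested.

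The mutated factor binds the E-box CACGTG together with MAX, and ATF4 binds C/EBP-ATF response elements, searched here as TGATGNAAN. Both were searched on both strands in RefSeq promoter windows (GRCh38.p14), which run from 250 bases before to 50 bases after each annotated start. Windows were given for 9 of the 10 members (15 windows), with PSPH unmatched. CACGTG was in 2 of these 15 windows, at SLC7A5 and SLC1A5, and in 7.26% of all 35116 windows. TGATGNAAN was in 5 of the 15, at SLC3A2, SLC1A5, SLC1A4, SLC38A1 and SLC7A1, and in 3.61% of all windows. By gene this is 2 and 5 of 9 members, against 8.77% and 4.45% of 27305 genes. The SLC7A5 promoter is shown because it holds an E-box, 130 bases before the start, in a gene that fell in one mutant and rose in the other. It lies at chr16:87869508-87869757 on the minus strand, is 79.6% G and C, and is printed 5′ to 3′ with the E-box in capitals.
SLC7A5: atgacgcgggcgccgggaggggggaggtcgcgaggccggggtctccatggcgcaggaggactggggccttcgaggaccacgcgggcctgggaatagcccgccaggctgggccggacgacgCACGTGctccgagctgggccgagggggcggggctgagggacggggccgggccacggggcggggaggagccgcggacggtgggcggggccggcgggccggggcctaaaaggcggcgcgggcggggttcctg

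The other matches are shown as short sites, with the motif in capitals as it reads on the strand of the gene. The E-box of SLC1A5 is 50 bases before an internal start (chr19:46787328-46787353, minus strand). The ATF4-type elements lie 97 bases before another SLC1A5 start (chr19:46784893-46784921, minus strand), 8 bases before a start of SLC1A4 (chr2:64989381-64989409, plus strand), 4 bases before a start of SLC38A1 (chr12:46266502-46266530, minus strand), at base 8 of the SLC7A1 transcript (chr13:29595663-29595691, minus strand) and at base 37 of a SLC3A2 transcript (chr11:62881725-62881748, plus strand). For SLC1A4 and SLC3A2 the element reads on the opposite strand. A match is a run of letters and not a measured binding site.
SLC1A5 E-box: cgggagtggtCACGTGgacaggacgg
SLC1A5 element: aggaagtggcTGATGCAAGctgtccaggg
SLC1A4 element: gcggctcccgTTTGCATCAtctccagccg
SLC38A1 element: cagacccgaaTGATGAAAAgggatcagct
SLC7A1 element: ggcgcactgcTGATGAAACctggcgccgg
SLC3A2 element: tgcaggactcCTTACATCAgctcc

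In K148R cells 5 of the 7 transporter mRNAs rose against parental cells, SLC38A2 and SLC7A1 fell, and all 3 serine synthesis mRNAs fell. Of all tested genes, 37.8% rose and 37.3% fell in this comparison. SLC38A1 rose 6.19-fold and PHGDH fell to 0.26 of its parental level. Summed over the 7 transporters, the level was 1700 to 1760 CPM in K148R libraries and 1250 to 1280 in parental ones, while the 3 enzymes summed to 49.2 to 55.2 CPM against 101 to 104. In K148Q cells SLC7A5 and SLC3A2 fell, and SLC7A1 and PSAT1 rose, each the reverse of its direction in K148R cells.

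Of the 10 members, 7 were called in K148Q and 10 in K148R cells against parental, and 9 between the mutants, beside 53.3%, 75.1% and 71% of all tested genes. With so many genes called, a call alone sets no member apart. Against parental cells, K148Q cells had 5 of the 10 members higher and 2 lower, where 27% and 26.3% of all tested genes were called in these directions. In K148R cells 5 members were higher and 5 lower than in parental cells, with a background of 37.8% and 37.3%. The direct comparison of K148R with K148Q cells gave 4 higher and 5 lower, with 36.6% and 34.5% as background. A change of at least 2-fold was called for 1, 2 and 3 members in these comparisons, and for 11.4%, 29.2% and 25.9% of all genes. The 1 member past 2-fold in K148Q cells was SLC38A1, which rose, where 4.71% of genes rose and 6.68% fell by that much. The median absolute log2 fold change of the members was 0.34, 0.73 and 0.71, beside 0.3, 0.58 and 0.51 over all tested genes. By these measures the members were near the background. Library values of the compared groups did not overlap for 8, 10 and 9 members, and for 59.5%, 80.6% and 71.4% of all genes. The first and second comparisons share the parental libraries.

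**Figure D1:**
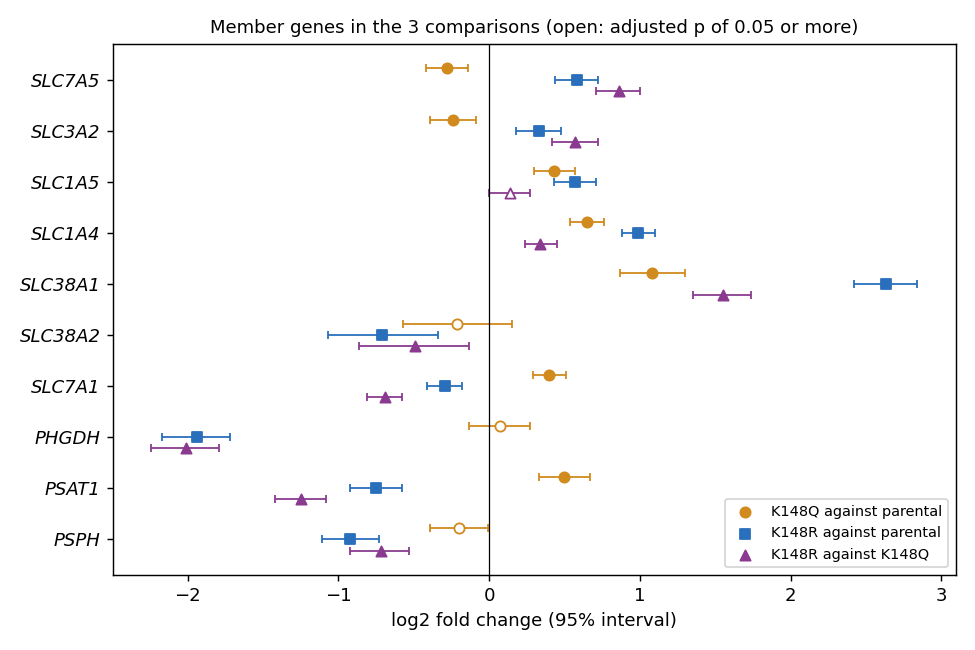
Log2 fold changes of the 10 members in the 3 comparisons, with 95% intervals; filled symbols passed the test and open ones did not. SLC38A1 in K148R cells (2.63) and PHGDH in K148R cells (-1.94 against parental and -2.01 against K148Q) lie farthest from 0, and SLC7A5, SLC3A2, SLC7A1 and PSAT1 lie on opposite sides of 0 in the 2 mutants.

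SLC7A5 (chromosome 16, 87830023 to 87869488, minus strand), the leucine carrier, fell in K148Q and rose in K148R cells. The parental libraries gave 288, 282 and 287 CPM, the K148Q libraries 250, 250 and 206, and the K148R libraries 437, 419 and 421. The 3 groups did not overlap, and K148Q replicate 3 was the lowest of all. The log2 fold change was -0.28 in K148Q (SE 0.0657, edgeR adjusted p = 0.0025) and 0.58 in K148R cells against parental (SE 0.0654, adjusted p = 1.4e-06). Between the mutants it was 0.86, a 1.81-fold higher level in K148R cells (SE 0.0658, adjusted p = 2.2e-08). A short antisense gene lies within SLC7A5, and no source used here gives the strand setting of the counts. The near copies SLC7A5P1 and SLC7A5P2, whose reads may be shared with it, stayed under 4 CPM on average in each genotype and rose in K148R cells by 1.91 and 1.84 on the log2 scale.

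SLC3A2 (chromosome 11, 62856102 to 62888875, plus strand), which encodes the partner glycoprotein, moved in the same directions by less. The parental libraries had 155, 158 and 154 CPM, the K148Q libraries 137, 142 and 116, and the K148R libraries 204, 193 and 190. Again no group overlapped another. Log2 fold changes were -0.24 in K148Q (SE 0.0693, edgeR adjusted p = 0.0092), 0.33 in K148R against parental (SE 0.0686, adjusted p = 0.00053) and 0.57 between the mutants (SE 0.069, adjusted p = 3.3e-06). Without K148Q replicate 3 the falls in K148Q cells were smaller but still called, at -0.18 for SLC7A5 (adjusted p = 1e-04) and -0.15 for SLC3A2 (adjusted p = 0.0056). Both genes are rich in G and C (61.1% and 57.4% of the longest transcript), and with a correction for GC content and length their rises in K148R cells shrank to 0.32 and 0.10, still called (adjusted p = 1.2e-08 and 0.018). Their falls in K148Q cells grew to -0.40 and -0.34 with this correction. It was fitted to deviations from the mean of all libraries, so it can also remove genotype differences that follow GC content or length.

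SLC1A5 (chromosome 19, 46774883 to 46788594, minus strand), a glutamine exchanger, rose in both mutants. Parental libraries held 349, 356 and 346 CPM, K148Q libraries 492, 507 and 422, and K148R libraries 540, 529 and 492. Every mutant library was above every parental one, and the mutants overlapped. The rise was 0.43 in K148Q (SE 0.0639, edgeR adjusted p = 5.5e-05) and 0.57 in K148R cells (SE 0.0639, adjusted p = 1.2e-06). The difference between the mutants did not pass the test (0.14, 95% interval 0 to 0.27, adjusted p = 0.069). It was called in fits without K148Q replicate 2 (0.18, adjusted p = 0.025) or without K148R replicate 3 (0.17, adjusted p = 0.043), and was 0.04 without K148Q replicate 3 (adjusted p = 0.34). With the correction for GC content and length the rise of SLC1A5 in K148R cells was 0.38 (adjusted p = 2.4e-10). An antisense gene overlaps the annotated start of SLC1A5, where reads cannot be told apart without strand.

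SLC1A4 (chromosome 2, 64988477 to 65023865, plus strand), the alanine, serine and cysteine exchanger, is the closest relative of SLC1A5 in this set and rose in larger proportion. Parental libraries had 138, 139 and 143 CPM, K148Q libraries 224, 223 and 210, and K148R libraries 274, 286 and 274. The groups formed 3 separate steps. Fold changes were 1.57 in K148Q (log2 0.65, SE 0.0509, edgeR adjusted p = 1e-07) and 1.99 in K148R cells (log2 0.99, SE 0.0509, adjusted p = 1.8e-10), and K148R was above K148Q by 0.34 (SE 0.0501, adjusted p = 2.1e-05).

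SLC38A1 (chromosome 12, 46183063 to 46270017, minus strand) and SLC38A2 (chromosome 12, 46358189 to 46372867, minus strand) encode sodium-coupled carriers of glutamine and other small neutral amino acids, and are neighbours in the genome. SLC38A1 was the member that rose most in both mutants. Parental libraries had 14.4, 13.3 and 13.5 CPM, K148Q libraries 27.9, 25.6 and 33.7, and K148R libraries 83.5, 84.4 and 87.3. No groups overlapped. The log2 fold change was 1.08 in K148Q (SE 0.101, edgeR adjusted p = 6e-07), 2.63 in K148R against parental (SE 0.0977, adjusted p = 4.5e-12) and 1.55 between the mutants (SE 0.0906, adjusted p = 9.8e-10). Its absolute change in K148R cells was larger than that of 92.6% of tested genes.

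SLC38A2 went the other way. It was at 138, 149 and 142 CPM in parental libraries, at 103, 106 and 161 in K148Q and at 78.7, 81.8 and 103 in K148R. K148Q replicate 3 was above all parental libraries and the other two were below them. SLC38A2 has the lowest GC content of the 10 members (38.1%, higher than 8.47% of tested genes). In K148Q cells the difference from parental did not pass the test (-0.21, 95% interval -0.57 to 0.15, edgeR adjusted p = 0.3), and without K148Q replicate 3 it did (-0.44, adjusted p = 0.00058). The correction for GC content and length gave -0.03 (adjusted p = 0.69). In K148R cells it fell by 0.71 (SE 0.163, adjusted p = 0.0026), or by 0.36 when corrected for GC content and length (adjusted p = 0.00027). Between the mutants it was -0.49 (SE 0.164, adjusted p = 0.02), -0.27 without K148Q replicate 3 (adjusted p = 0.014) and not called without K148R replicate 1 (-0.42, adjusted p = 0.07). An antisense gene overlaps the start of SLC38A2.

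SLC7A1 (chromosome 13, 29509410 to 29595688, minus strand), the arginine and lysine carrier, rose in K148Q and fell in K148R cells, the reverse of SLC7A5. Parental libraries stood at 171, 180 and 170 CPM, K148Q libraries at 238, 230 and 219, and K148R libraries at 144, 143 and 138. No group overlapped another. Log2 fold changes were 0.40 in K148Q (SE 0.0531, edgeR adjusted p = 2.1e-05), -0.29 in K148R against parental (SE 0.0535, adjusted p = 0.00016) and -0.69 between the mutants (SE 0.0534, adjusted p = 2.2e-08). When corrected for GC content and length, the fall of SLC7A1 in K148R cells was larger, at -0.56 (adjusted p = 2.3e-12).

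**Figure D2:**
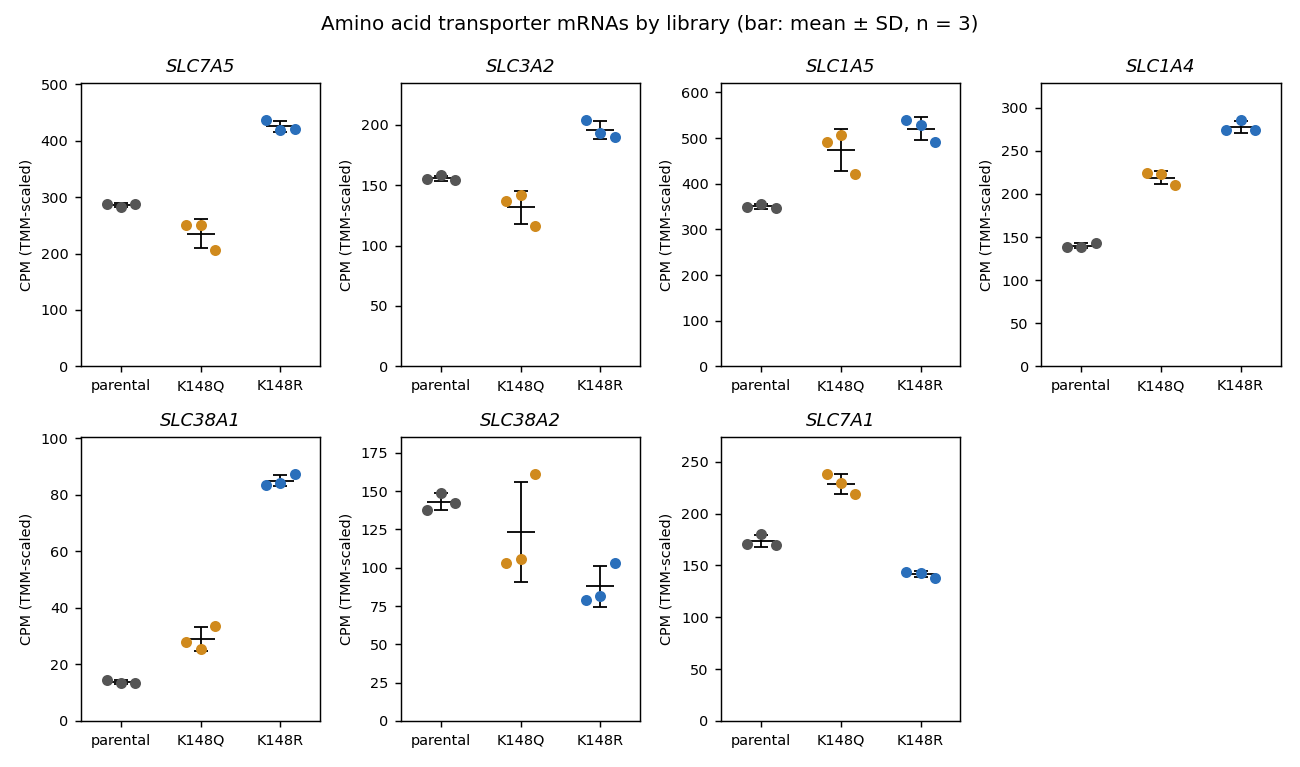
Normalised counts (CPM, linear axis from 0) of the 7 transporter genes in each of the 9 libraries; points are libraries and bars the mean ± SD of 3. SLC38A1 rises in 2 steps from 13.7 to 29.1 and 85.1 CPM, and K148Q replicate 3 (the right-most K148Q point) is apart from its group for SLC38A2.

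All 3 serine synthesis enzymes fell in K148R cells. PHGDH (chromosome 1, 119648411 to 119744226, plus strand), which catalyses the first and committed step, had 20.6, 19.5 and 19.6 CPM in the parental libraries. K148Q libraries had 21.1, 21.7 and 20 CPM, and K148R libraries 4.63, 5.42 and 5.51. Parental and K148Q libraries overlapped, and the K148R libraries, with 80 to 89 PHGDH counts each, were far below both. The fall in K148R cells was 3.85-fold against parental (log2 -1.94, SE 0.106, edgeR adjusted p = 3.5e-10) and 4.04-fold against K148Q cells (log2 -2.01, SE 0.106, adjusted p = 2.8e-10). In K148Q against parental cells it was not called (0.07, 95% interval -0.13 to 0.27, adjusted p = 0.54).

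PSAT1 (chromosome 9, 78297143 to 78330093, plus strand), the aminotransferase of the second step, rose in K148Q and fell in K148R cells. Parental libraries were at 55.2, 53.3 and 54 CPM, K148Q libraries at 71.8, 72.5 and 85.3, and K148R libraries at 30.1, 33.4 and 33.2. The groups did not overlap. It rose by 0.50 in K148Q (SE 0.0783, edgeR adjusted p = 9.6e-05), fell by 0.75 in K148R cells (SE 0.0815, adjusted p = 8.6e-07) and was 2.38-fold lower in K148R than in K148Q cells (log2 -1.25, SE 0.0809, adjusted p = 3.1e-09). Corrected for GC content and length, the change of PSAT1 in K148R cells was -0.41 (adjusted p = 4.9e-07).

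PSPH (chromosome 7, 56011051 to 56051604, minus strand), the phosphatase of the last step, was at 28.3 CPM in each parental library, at 23.4, 25.9 and 24.6 in K148Q, and at 14.5, 13.9 and 16.5 in K148R. All K148R libraries were below all others, and all K148Q libraries were below the parental ones. The log2 fold change was -0.92 in K148R against parental (SE 0.0902, edgeR adjusted p = 2.8e-07) and -0.72 against K148Q cells (SE 0.091, adjusted p = 5e-06). For K148Q against parental cells it was -0.20 and just missed the threshold (95% interval -0.39 to -0.01, adjusted p = 0.067). PSPH and PSAT1 have pseudogene copies, not analysed here, whose reads the counting could have mixed with theirs.

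**Figure D3:**
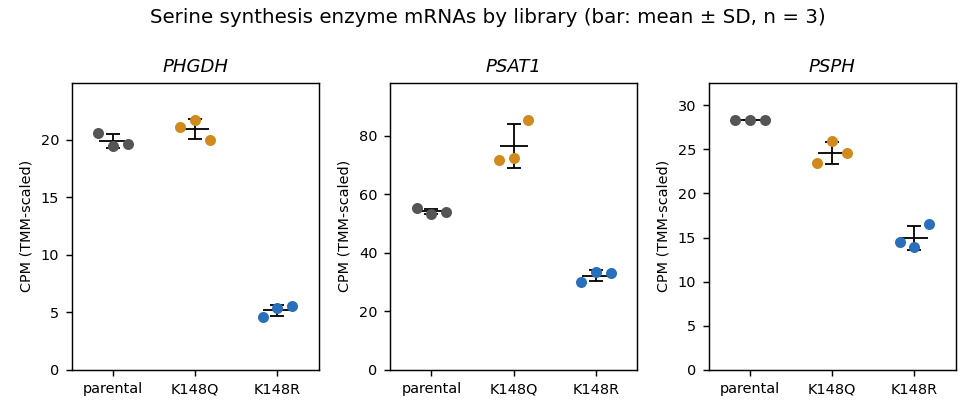
Normalised counts (CPM, linear axis from 0) of the 3 serine synthesis genes in each library, with the mean ± SD of 3. K148R libraries lie lowest for each gene, and K148Q libraries lie above parental ones for PSAT1 only.

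Ratios of 2 genes within a library do not depend on how libraries are scaled. They do not remove library differences that follow GC content, as seen in K148Q replicate 3, where the 2 genes differ in it. SLC1A5 (61.3%) and SLC1A4 (46.5%) are such a pair. Each ratio was compared by a two-sided exact permutation test over 3 against 3 libraries. The smallest possible p of this test is 0.1, so no ratio could pass 0.05. In all, 7 ratios were compared. SLC7A5 counts per SLC3A2 count were 1.86, 1.78 and 1.86 in parental libraries. K148Q libraries had 1.82, 1.76 and 1.77, and K148R libraries 2.14, 2.17 and 2.22. The parental and K148Q values overlapped (exact p = 0.2), and those of K148R were above both (exact p = 0.1). The largest shift was that of SLC38A1 over SLC38A2, at 0.105, 0.0892 and 0.0949 in parental libraries. It was 0.27, 0.242 and 0.209 in K148Q libraries, and 1.06, 1.03 and 0.851 in K148R libraries. This ratio was 2.49-fold higher in K148Q and 10.2-fold higher in K148R than in parental cells (exact p = 0.1 for each). Counts of SLC7A1 per SLC7A5 count were 1.61-fold higher in K148Q and 1.83-fold lower in K148R than in parental cells. SLC1A5 over SLC1A4 was 2.43 to 2.57 in parental libraries, 2.01 to 2.27 with K148Q and 1.8 to 1.97 with K148R (exact p = 0.1 for each mutant).

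Within serine synthesis the ratio of PHGDH to PSAT1 counts was lower in each mutant, going from 0.363 to 0.373 in parental to 0.234 to 0.299 in K148Q and 0.154 to 0.166 in K148R libraries. That of PSAT1 to PSPH was highest in K148Q libraries, at 2.8 to 3.47, against 1.88 to 1.95 in parental and 2.02 to 2.4 in K148R libraries. PHGDH over PSPH went up to 0.811 to 0.9 in K148Q from 0.691 to 0.727 in parental libraries, and down to 0.32 to 0.39 in K148R libraries. For these 3 ratios, neither mutant overlapped the parental libraries (exact p = 0.1, the smallest possible).

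**Figure D4:**
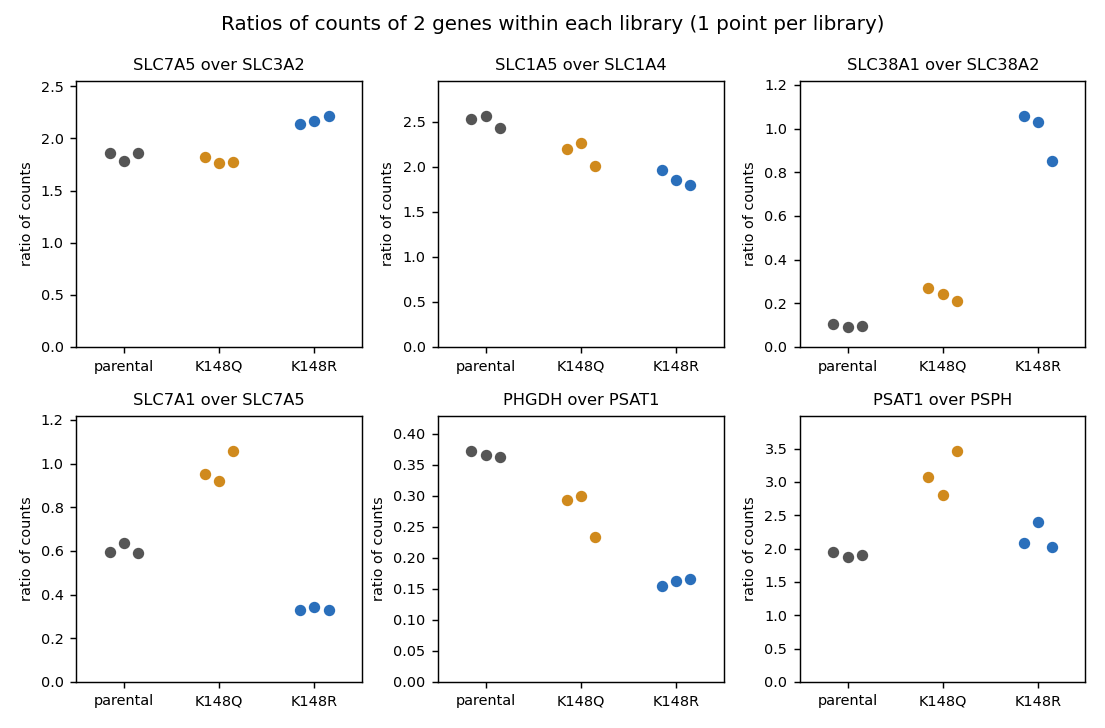
Ratios of the counts of 2 genes within each library (linear axes from 0, 1 point per library). SLC38A1 over SLC38A2 goes from about 0.1 in parental to between 0.851 and 1.06 in K148R libraries, and SLC7A1 over SLC7A5 is highest in K148Q and lowest in K148R libraries.

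Levels were compared between genes as CPM per kb of the union of annotated exons. SLC1A5 was the highest member in each genotype, with 105 ± 1.58 CPM per kb in parental cells, 142 ± 13.5 with K148Q and 156 ± 7.54 with K148R, followed by SLC7A5 with 60.2 ± 0.724, 49.6 ± 5.26 and 89.7 ± 2.11. In parental cells SLC3A2 (30.1), PSAT1 (24.7), SLC7A1 (22.6), SLC38A2 (21.7) and SLC1A4 (20.1) came next, with SLC7A1 and SLC38A2 overlapping, then PSPH (10.2), PHGDH (2.16) and SLC38A1 (1.37 CPM per kb). In K148Q cells the third place was taken by PSAT1 (35), and SLC1A4 (31.5) overlapped SLC7A1 (29.8), as did SLC3A2 (25.5) and SLC38A2 (18.7). PSPH (8.92), SLC38A1 (2.9) and PHGDH (2.27 CPM per kb) were lowest. In K148R cells the order below SLC7A5 was SLC1A4 (40), SLC3A2 (37.8), SLC7A1 (18.4), PSAT1 (14.7), SLC38A2 (13.3, overlapping PSAT1), SLC38A1 (8.5), PSPH (5.41) and PHGDH (0.563 CPM per kb). The exon union of PHGDH, 9.22 kb, is long for its longest transcript of 3180 bases. With the longest transcript as length, SLC3A2 moved above SLC7A5 in parental and K148Q cells, and the middle of the order changed. In K148Q cells SLC38A1 then lay below PHGDH and was the lowest member.

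Likeness between genes was measured as the root mean square distance of log2(CPM + 1) profiles over the 9 libraries, each centred on its mean, among 9066 candidates. SLC7A5 and SLC3A2 were each other's nearest member, 0.13 apart, yet many other genes lay closer to either: SLC3A2 ranked 140 among the neighbours of SLC7A5, and SLC7A5 ranked 300 among those of SLC3A2. Nearest to SLC7A5 were TTYH3 (0.0249) and RXRA (0.0389), and nearest to SLC3A2 were ARHGAP17 (0.0257) and RPS9 (0.0281). PHGDH was closest to KPNA2 (0.0706) and MSH6 (0.0711), PSAT1 to UACA (0.0525) and BAZ2B (0.0578), and PSPH to ETFDH (0.0458) and NUP133 (0.0508). The nearest member to PHGDH was PSAT1, at rank 701 and a distance of 0.432.

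The other genes of amino acid handling were taken from lists by function, some of which share genes. The counts below stand beside 27% of all tested genes higher and 26.3% lower in K148Q, and 37.8% higher and 37.3% lower in K148R against parental cells. Among 17 tested of 27 other amino acid transporters, 7 were higher and 5 lower in K148Q, and 6 higher and 8 lower in K148R against parental cells (median log2 fold change 0.20 and -0.38). SLC7A11, the cystine carrier that also pairs with SLC3A2, rose from 1.07 ± 0.328 CPM in parental to 4.32 ± 0.974 in K148Q and 79.3 ± 7.34 in K148R cells (log2 2.00 and 6.19). Other partners of SLC3A2 were singled out after their values were seen: SLC7A6, a carrier of cationic and neutral amino acids, went from 135 ± 1.2 to 106 ± 3.68 and 104 ± 3.37 CPM, and SLC7A7 from 3.96 ± 0.216 to 0.849 ± 0.0914 and 2.04 ± 0.284 CPM, each called lower in both mutants. SLC7A8 was at 1.04 ± 0.0419, 0.0652 ± 0.113 and 0.826 ± 0.222 CPM, called lower in K148Q and not in K148R cells (edgeR adjusted p = 0.45). SLC43A2, a carrier of large neutral amino acids like SLC7A5, rose from 13.7 ± 0.919 to 17.8 ± 1.14 and 76.9 ± 4.99 CPM. SLC36A1, a lysosomal exporter of small amino acids, rose from 50.8 ± 0.608 to 86.2 ± 5.85 and 135 ± 3.72 CPM. SLC38A5, a glutamine carrier related to SLC38A1 and SLC38A2, fell from 54.8 ± 2 to 33.3 ± 3.81 and 6.77 ± 0.984 CPM.

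Of 19 tested genes that use serine and glycine, 5 were higher and 10 lower in K148R than in parental cells (median -0.30), where 37.8% and 37.3% of all genes were. In K148Q cells 5 were higher and 6 lower. SHMT2, which splits serine into glycine and a folate-bound carbon in mitochondria, fell from 255 ± 1.45 CPM in parental to 228 ± 18.6 in K148Q and 131 ± 3.66 in K148R cells (log2 -0.16 and -0.96). MTHFD1, which handles that carbon in the cytosol, fell from 317 ± 8.31 to 67.9 ± 3.34 CPM, and SFXN1, the mitochondrial serine carrier, from 96.3 ± 2.2 to 33 ± 0.456 CPM. MTHFD2, the mitochondrial enzyme downstream of SHMT2, went the other way in K148R cells. From 187 ± 6.33 CPM in parental cells MTHFD2 fell to 129 ± 15.4 with K148Q and rose to 281 ± 5.25 with K148R, the directions of SLC7A5. ALDH1L2, a mitochondrial folate enzyme, rose from 8.53 ± 1.13 to 26.1 ± 2.4 CPM in K148Q and 10.7 ± 0.779 CPM in K148R cells. SPTLC2, which joins serine to palmitate in sphingolipid synthesis, fell in K148Q cells from 383 ± 2.74 to 277 ± 11.2 CPM.

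Of 20 tested genes of the amino acid response driven by ATF4, 9 were higher and 3 lower in K148Q (median 0.19), and 15 higher and 3 lower in K148R cells (median 0.63), beside 27% and 26.3%, and 37.8% and 37.3%, of all genes. The list leaves out all 10 members, of which 5 were higher and 5 lower in K148R cells. PHGDH, PSAT1 and PSPH were among the lower ones, so the list is not a full set of ATF4 targets. ATF4 mRNA rose from 221 ± 4.47 CPM to 277 ± 11.4 with K148R, and was 208 ± 13.6 CPM with K148Q (edgeR adjusted p = 0.19). PPP1R15A, a phosphatase subunit that reverses the translational block of this response, rose from 37.2 ± 0.372 to 49.7 ± 4.06 CPM in K148Q and 266 ± 27.2 CPM in K148R cells. CEBPB and VLDLR rose in both mutants, and more in K148Q cells. CEBPB went from 17.7 ± 0.437 to 49 ± 2.78 CPM in K148Q and 31.1 ± 1.81 in K148R cells. VLDLR went from 27.7 ± 1.4 to 66.5 ± 4.54 and 43.9 ± 2.59 CPM. ASNS, which makes asparagine and is a textbook ATF4 target like PHGDH, PSAT1 and PSPH, fell in K148Q cells (28.2 ± 1.39 to 20.2 ± 1.2 CPM) and did not pass in K148R cells (25.5 ± 1.82 CPM, edgeR adjusted p = 0.13). The 3 genes of the list that fell in K148R cells were EIF4EBP1 (135 ± 2.06 to 94.2 ± 3.11 CPM), CEBPG (141 ± 3.41 to 111 ± 4.84) and TRIB3 (11.6 ± 0.416 to 9.23 ± 1.22), named because they were so few.

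Glutamine and glutamate use had 5 of 15 tested genes higher and 6 lower in K148Q, and 2 higher and 7 lower in K148R cells (median -0.07 and -0.34). Of all tested genes, 27% were higher and 26.3% lower in K148Q, and 37.8% higher and 37.3% lower in K148R cells. GLUL, which makes glutamine, rose from 246 ± 2.69 CPM to 370 ± 8.55 in K148Q and 569 ± 5.95 in K148R cells. GOT1, an aspartate aminotransferase, fell in K148Q cells from 14.4 ± 0.85 to 7.35 ± 0.781 CPM. PFAS and CAD, which spend glutamine on purines and pyrimidines, fell in K148R cells from 171 ± 2.95 to 42.5 ± 3.06 and from 255 ± 2.47 to 104 ± 5.33 CPM. In K148Q cells PFAS was at 151 ± 9.59 CPM, called lower, and CAD at 333 ± 31.7 CPM, called higher. Of 16 genes of branched-chain amino acid breakdown, 2 were higher and 3 lower in K148Q (4 and 6 without K148Q replicate 3), and 3 higher and 10 lower in K148R cells. BCAT1, an aminotransferase of the first step, fell from 28.6 ± 3.29 to 18.3 ± 5.28 and 10.1 ± 0.882 CPM, while IVD, a later enzyme of leucine breakdown, rose from 107 ± 2.46 to 204 ± 4.93 CPM in K148R cells. The kinase BCKDK, which inhibits the branched-chain ketoacid dehydrogenase, rose from 67.7 ± 1.31 to 88.6 ± 6.64 CPM in K148Q cells. In K148R cells BCKDK was at 60.7 ± 1.46 CPM, called lower. The phosphatase PPM1K, which activates the dehydrogenase, rose in both mutants, from 5.68 ± 0.128 to 8.94 ± 1.6 CPM in K148Q and 28.3 ± 4.16 CPM in K148R cells. Among 27 genes by which mTORC1 senses amino acids, 11 were higher and 5 lower in K148Q, and 14 higher and 6 lower in K148R cells (median 0.17 and 0.27), against the same shares of all genes. MTOR rose in K148Q cells from 122 ± 3.01 to 165 ± 9.53 CPM, and SESN1, a sestrin, fell there from 42.2 ± 1.92 to 20.4 ± 4.36 CPM. SESN2, a leucine sensor, rose from 16.8 ± 1.52 to 33.8 ± 3.04 CPM in K148R cells, and SLC38A9, the lysosomal arginine sensor, fell from 38 ± 1.73 to 21.6 ± 4.6 in K148Q and 13.1 ± 1.01 CPM in K148R cells.

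**Figure D5:**
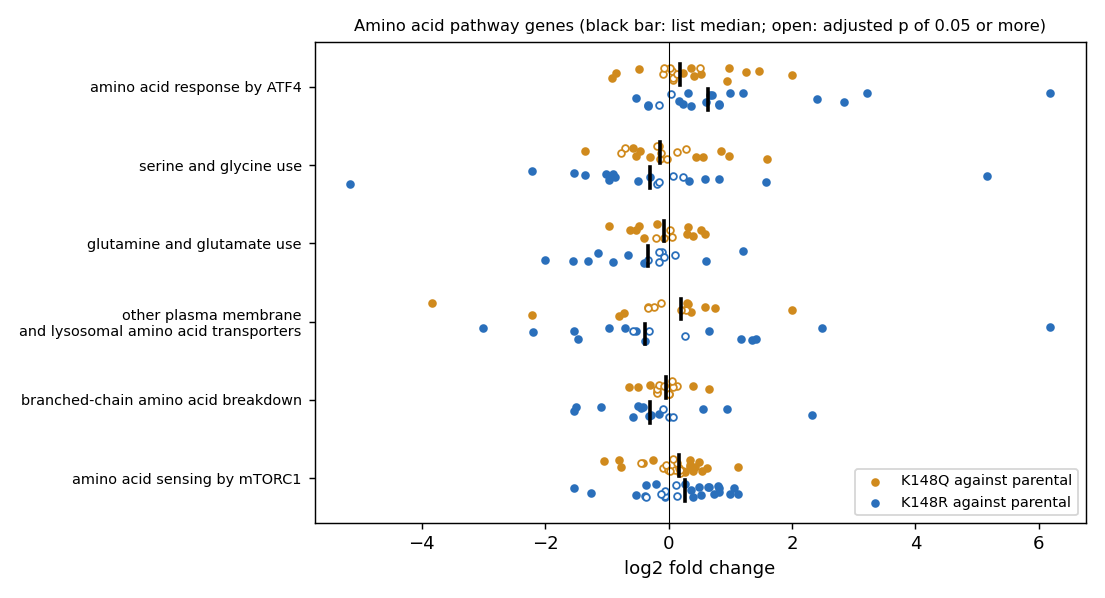
Log2 fold changes of K148Q and K148R against parental cells for the tested genes of 6 amino acid lists (1 point per gene, black bar at the list median, open points not called). In K148R cells the median of the ATF4 list is 0.63 and that of the glutamine list -0.34, and SLC7A11 at 6.19 is the right-most point of the lists that hold it.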

How the data were processed

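RNA was sequenced from 9 libraries. The authors deposited raw read counts per gene symbol; alignment to GRCh38 with HISAT2 2.0.5 and counting with featureCounts 1.5.2 are listed in the submitters' processing notes, beside FastQC 0.11.7. No source used here gives strand, annotation or poly(A) selection. Groups came from the labelled genotype. Counts were filtered with filterByExpr, scaled with TMM and fitted together, with 1 term per genotype, by robust quasi-likelihood in edgeR 4.0.16 (R 4.3.3). The fit was tried on simulated counts with few changed genes, a fixed spread and no outlying library. That setting is simpler than these data, so it does not show how the fit performs here. SEs were derived from the F statistic. Exon lengths, GC content and positions came from GENCODE 29 (GRCh38), whose annotation may differ from the authors'. Members and lists were chosen with earlier results of these data known. All members were named, and from each list up to 2 genes with the smallest p per comparison (at least 10 CPM in the higher group) plus SLC7A11, ASNS, ATF4, MTHFD2 and SHMT2; some items are not reported here. Alternatives were DESeq2 1.42.0, limma-voom (limma 3.58.1), other scalings, filters and thresholds, a replicate block, GC content and length correction, and leaving out libraries.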

Additional observations from a re-analysis of the deposited data

How the results depend on the processing

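For the 30 member fold changes, 572 of 600 values under 20 alternative settings kept their direction and side of the threshold. Testing for a change above 1.5-fold left 1567, 4877 and 4191 genes called (743, 2442 and 2178 higher) for K148Q cells against parental, K148R cells against parental and between the mutants, with 1, 2 and 2 members higher and 0, 3 and 3 lower. It ended the calls in K148Q cells of SLC7A5 (-0.28), SLC3A2 (-0.24), SLC1A5 (0.43), SLC1A4 (0.65), SLC7A1 (0.40) and PSAT1 (0.50), in K148R cells against parental of SLC7A5 (0.58), SLC3A2 (0.33), SLC1A5 (0.57), SLC38A2 (-0.71) and SLC7A1 (-0.29), and between the mutants of SLC3A2 (0.57), SLC1A4 (0.34), SLC38A2 (-0.49) and PSPH (-0.72), since these estimates are near or under that fold or imprecise.

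PHGDH in K148Q cells, not called, changed sign with the GC content and length correction, to -0.06 with and without the replicate block. PSPH in K148Q cells was called with upper-quartile scaling (-0.24) and when corrected for GC content and length (-0.20 with and without the block). SLC1A5 between the mutants was called with upper-quartile scaling (0.17), the replicate block (0.14) and the block with GC content and length correction (0.07). SLC38A2 between the mutants was not called with no filter on low counts (-0.52). The cause was not tested. Leaving out a library moved SLC38A2 in K148Q from -0.44 to -0.10, SLC1A5 between the mutants from 0.04 to 0.18 and SLC38A2 between the mutants from -0.62 to -0.27. Deviations of same-numbered libraries correlated by -0.02 to 0.04 between parental and mutant libraries and by 0.14, 0.01 and 0.27 between the mutants, highest with the own number in 9 of 18 comparisons. Not every pair passed 0.1, so the numbers were not taken as pairs. The block moved the counts of called genes to 7262, 9821 and 9410. The PHGDH neighbours kept 1 of 2 genes with a pseudocount of 0.5.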
